A study of Mus musculus with 4 samples.

Results

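The genes of 10 enzymes of glucose breakdown were followed in brain endothelial cells with and without PD-1: Hk1, Hk2, Gpi1, Pfkl, Pfkfb3, Aldoa, Pgk1, Eno1, Pkm and Ldha. They were taken by symbol from the count tables, and all 10 were found among the 21578 genes listed there and among the 15909 genes that held enough counts to be tested. The cells came from C57BL/6 mice at postnatal day 0 and were dissociated from cerebral cortex, labelled for the endothelial protein CD31 and the leukocyte protein CD45, and sorted by flow cytometry. Pd1fl/fl mice carry floxed Pd1 alleles and no Cre, and Pd1cKO-Tie2 mice carry the same floxed alleles and the Tie2-Cre transgene. Every library thus shares the floxed alleles, and the genotypes differ in Cre. Tie2-Cre acts in endothelium and also in cells of the blood lineage, so the deletion may not be limited to endothelial cells. The paper measured Pd1 mRNA in purified neurons, astrocytes, oligodendrocytes, microglia and pericytes and described the knockout as restricted to endothelial cells. It names Cre in blood cells as a limitation. RNA was sequenced from 2 libraries per genotype, with 13714374 and 14358748 counts in the Pd1fl/fl pair against 14155871 and 24146115 in the Pd1cKO-Tie2 pair. Nothing in the labels says that the libraries came from separate animals, so a p-value here measures the spread between libraries, which may be technical.

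Glycolysis splits glucose into pyruvate in the cytosol and yields ATP without oxygen, and lactate dehydrogenase then turns pyruvate into lactate. Endothelial cells are known to draw most of their ATP from this route although they line the blood stream, and PFKFB3 is known to drive the flux during vessel sprouting. Brain endothelium also carries glucose to the tissue through the transporter GLUT1, encoded by Slc2a1. Several of these enzyme genes, Pgk1 and Ldha among them, are textbook targets of the hypoxia-inducible factors.

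Before the enzymes, the libraries were checked against their labels. Pdcd1, the deleted gene, had 32 counts in Pd1fl/fl 1 and 0 counts in Pd1fl/fl 2 and in both Pd1cKO-Tie2 libraries, so its loss was not detectable against Pd1fl/fl 2. All 11 endothelial markers were measured in every library. Their summed level was 10607 and 9640 CPM (counts scaled to the library total, here by the TMM method of edgeR) in the Pd1fl/fl pair against 12561 and 13416 CPM in Pd1cKO-Tie2. Neutrophil genes set 1 library apart, since the 5 markers summed to 722.5 CPM in Pd1fl/fl 1 and to between 0.634 and 1.88 CPM in the other libraries. The markers of pericytes, the mural cells of capillaries, summed to between 3568 and 5520 CPM, so RNA of other cells was present in all of the libraries. In sorted bulk samples, fewer cells of a type and less RNA per cell cannot be told apart.

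The hypoxia response core, the letters ACGTG or GCGTG on either strand (CACGT or CACGC when read on the other strand), was searched in the 250 bases before each transcription start given by RefSeq for GRCm38.p6. All 10 genes had such a window, 18 windows in all, and 14 of them (77.8%) held the core, against 38.6% of the 32851 windows of all genes. Among the 18, a pair of Aldoa windows and a pair of Eno1 windows overlap and hold the same matches, which are thus counted in each. The windows of the enzymes were rich in G and C, with a median of 62.8% against 52.4% over all windows. Of the windows with at least 60% G and C, 11 of 12 of the enzymes' and 63.8% of all held the core. At the level of genes, 9 of the 10 enzymes and 41.5% of all genes had the core in at least 1 window, and Gpi1 was the exception. A match is a description of the letters only. The windows before Hk1 and Hk2 are shown because both are isozymes of the first step and Hk2 had the log2 fold change farthest from 0 among the 10, that of Gpi1 because it lacks the core, and that of Pgk1 as a textbook hypoxia target. Each runs 5′ to 3′ toward the start, with the core in capitals. They lie at chr10:62379909-62380158 (Hk1, minus strand), chr6:82774455-82774704 (Hk2, minus strand), chr7:34230337-34230586 (Gpi1, minus strand) and chrX:106186850-106187099 (Pgk1, plus strand).
Hk1: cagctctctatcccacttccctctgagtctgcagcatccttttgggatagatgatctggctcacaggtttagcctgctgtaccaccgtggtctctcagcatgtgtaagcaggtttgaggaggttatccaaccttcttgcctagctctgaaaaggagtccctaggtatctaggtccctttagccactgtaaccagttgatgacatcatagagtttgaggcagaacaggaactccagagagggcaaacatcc
Hk2: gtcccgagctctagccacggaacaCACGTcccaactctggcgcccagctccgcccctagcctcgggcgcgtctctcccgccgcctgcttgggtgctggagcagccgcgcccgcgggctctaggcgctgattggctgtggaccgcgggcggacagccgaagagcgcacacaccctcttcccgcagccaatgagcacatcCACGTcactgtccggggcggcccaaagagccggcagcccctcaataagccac
Gpi1: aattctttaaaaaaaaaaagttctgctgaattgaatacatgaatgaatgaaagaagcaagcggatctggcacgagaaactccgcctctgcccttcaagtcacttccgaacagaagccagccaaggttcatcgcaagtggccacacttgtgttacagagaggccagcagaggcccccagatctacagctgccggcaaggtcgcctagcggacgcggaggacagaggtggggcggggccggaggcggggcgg
Pgk1: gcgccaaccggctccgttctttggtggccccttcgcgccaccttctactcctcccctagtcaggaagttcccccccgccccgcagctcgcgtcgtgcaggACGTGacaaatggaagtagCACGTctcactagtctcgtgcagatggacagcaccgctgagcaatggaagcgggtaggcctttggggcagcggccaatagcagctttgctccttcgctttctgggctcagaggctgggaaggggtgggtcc
In Hk2 the cores begin 226 and 52 bases before the start, and in Pgk1 150 and 131 bases before it. The Hk1 window shown belongs to the upstream start and holds no core. A window at a start inside the gene, chr10:62340422-62340671, holds 3 matches, some of which overlap.

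The log2 fold changes of 9 of the 10 enzymes lay between 0.00 and 0.32, and Hk2 stood out with the lowest level and the largest SE (0.92). Between the Pd1fl/fl libraries, however, the log2 difference was larger in size for Hk1 (-1.29) than for Hk2 (0.96). None of the enzymes passed the criterion of the study, a fold of 2 or more together with a p of at most 0.05, in either direction. Among all tested genes, 1.41% passed it as higher and 2.61% as lower in Pd1cKO-Tie2. With edgeR's quasi-likelihood test, 0 of the 10 had an unadjusted p under 0.05, and the smallest adjusted p among them was 0.847. With that edgeR test no tested gene of the whole table had an adjusted p under 0.05 (0.0%), although 1016 had an unadjusted p under 0.05. With DESeq2 on all genes with a count, 0 of the 10 enzymes passed the criterion and the smallest adjusted p among them was 0.628. Some genes outside the 10 did have an adjusted p under 0.05 in that DESeq2 fit, among them Slc1a3 (0.00287) and Fabp7 (0.00523).

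**Figure D1:**
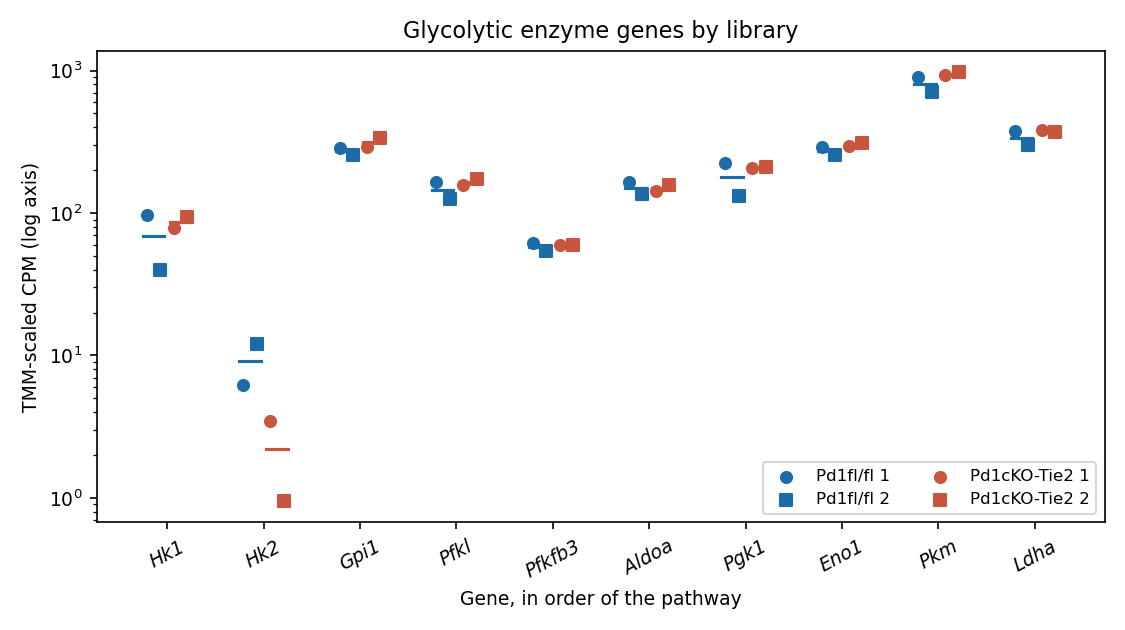
TMM-scaled CPM of the 10 enzyme genes on a log axis, with 1 point per library (blue for Pd1fl/fl, red for Pd1cKO-Tie2, circles for library 1 and squares for library 2) and a short line at each genotype's mean. Pd1fl/fl 2 is the lowest point for 9 of the 10 genes, and for Hk2 it is the highest.

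The first step, in which hexokinase traps glucose as glucose-6-phosphate, is represented by Hk1 and Hk2. Hk2 (ENSMUSG00000000628, chromosome 6 of GRCm38 from 82725025 to 82774454), the inducible hexokinase, had 89 and 171 counts in the Pd1fl/fl pair against 83 and 13 in the Pd1cKO-Tie2 pair. Scaled to library size these were 6.17 and 12.05 CPM against 3.47 and 0.952 CPM, so both Pd1cKO-Tie2 libraries lay below both Pd1fl/fl libraries. The groups did not overlap in this direction for 1 of the 10 enzymes and for 18.1% of all tested genes. The means were 9.11 ± 4.15 CPM in Pd1fl/fl against 2.21 ± 1.78 CPM in Pd1cKO-Tie2 (SD, n = 2), a log2 fold change of -2.03 (SE 0.92). The Pd1fl/fl libraries themselves differed by 0.96 on the log2 scale and the Pd1cKO-Tie2 libraries by -1.87, and the adjusted p was 0.847 (edgeR, unadjusted p = 0.0720). Counting error alone gave 95% exact Poisson intervals of 2.77 to 4.31 CPM in Pd1cKO-Tie2 1 and 0.507 to 1.63 CPM in Pd1cKO-Tie2 2, which do not meet each other or those of the Pd1fl/fl libraries, the lower of which began at 4.96 CPM. With 1 library left out, its genotype has 1 library, which is assumed to vary like the other genotype's pair. Without Pd1cKO-Tie2 1 the log2 fold change of Hk2 was -3.24, and without Pd1cKO-Tie2 2 it was -1.38. Without Pd1fl/fl 2 it was -1.47.

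Hk1 (ENSMUSG00000037012, chromosome 10 from 62268855 to 62379908), the constitutive hexokinase that binds mitochondria, had 1404 and 564 counts in the Pd1fl/fl pair against 1878 and 1270 in the Pd1cKO-Tie2 pair. Its level was 97.4 CPM in Pd1fl/fl 1, 39.7 CPM in Pd1fl/fl 2, 78.6 CPM in Pd1cKO-Tie2 1 and 93.0 CPM in Pd1cKO-Tie2 2. The Pd1fl/fl libraries were thus the highest and the lowest of all, and the Pd1cKO-Tie2 libraries lay between them. The log2 fold change was 0.32 (SE 0.43) with an adjusted p of 1.00 (edgeR), against a log2 difference of -1.29 between the Pd1fl/fl libraries. Without Pd1fl/fl 1 the log2 fold change was 1.11, and without Pd1fl/fl 2 it was -0.18.

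Per kilobase of exon, Hk1 made up 88.7% and 56.6% of the summed counts of Hk1, Hk2 and Hk3 in Pd1fl/fl against 90.0% and 84.0% in Pd1cKO-Tie2. The share of Hk2 was 8.04% and 24.5% in Pd1fl/fl against 5.68% and 1.23% in Pd1cKO-Tie2, a lower share in both Pd1cKO-Tie2 libraries. The mean difference of the Hk2 share was -12.8 percentage points. In an exact two-sided permutation test its p was 0.333, the smallest that 2 against 2 libraries can give (1.00 after Benjamini-Hochberg adjustment over 23 shares of 8 steps). The leukocyte isozyme Hk3 made up the rest, and its share overlapped between the genotypes. Of the 23 shares, 7 did not overlap between the genotypes, counted in both directions, and shares of the same step depend on each other.

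**Figure D2:**
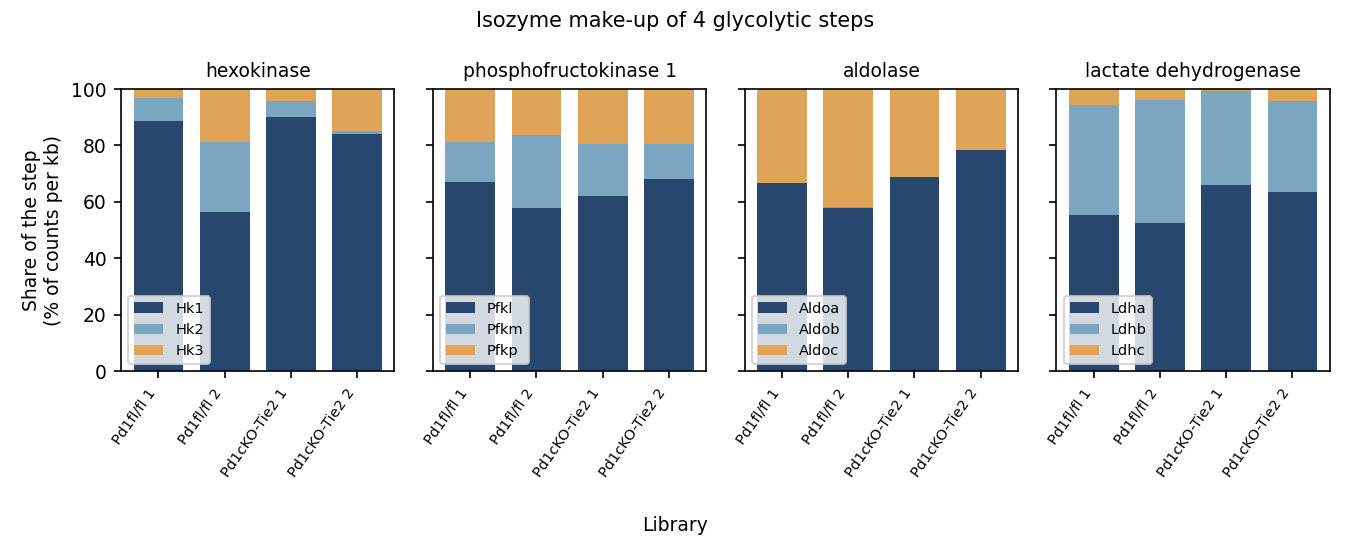
Share of each isozyme in the counts per kilobase of exon of its step, in percent, stacked for each of the 4 libraries and shown for hexokinase, phosphofructokinase 1, aldolase and lactate dehydrogenase. Hk1, Pfkl, Aldoa and Ldha hold the largest share in every library, and the Hk1 share is lowest in Pd1fl/fl 2 at 56.6%.

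Gpi1 (ENSMUSG00000036427, chromosome 7 from 34201330 to 34230336), whose enzyme turns glucose-6-phosphate into fructose-6-phosphate, had 4100 and 3640 counts in the Pd1fl/fl pair against 6928 and 4613 in the Pd1cKO-Tie2 pair. These were 284 and 256 CPM against 290 and 338 CPM. The Pd1cKO-Tie2 pair lay wholly above the Pd1fl/fl pair, by a margin at the nearest pair that was small beside the spread within a genotype. Its log2 fold change was 0.22 (SE 0.16) with an adjusted p of 0.972 (edgeR). Gpi1, Eno1 and Pkm were the 3 of 10 enzymes whose groups did not overlap with Pd1cKO-Tie2 on the higher side, which held for 17.7% of all tested genes. Under upper quartile scaling or scaling to library size the groups of Eno1 overlapped, and those of Gpi1 and Pkm did not. Of the 50-base stretches of Gpi1, 15.8% also occur in other genes.

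Phosphofructokinase 1 commits the sugar to the pathway, and its liver isozyme gene Pfkl (ENSMUSG00000020277, chromosome 10 from 77986947 to 78010083) had 2363 and 1774 counts in the Pd1fl/fl pair against 3736 and 2364 in the Pd1cKO-Tie2 pair. The levels of 164 and 125 CPM overlapped with those of 156 and 173 CPM, and the log2 fold change was 0.19 (SE 0.20, adjusted p = 1.00, edgeR). Pfkl made up 67.2% and 58.0% of the phosphofructokinase 1 counts per kilobase in Pd1fl/fl against 62.1% and 68.1% in Pd1cKO-Tie2. The platelet isozyme Pfkp held 18.7% and 16.3% against 19.6% and 19.4%, higher in both Pd1cKO-Tie2 libraries (exact permutation p = 0.333).

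Pfkfb3 (ENSMUSG00000026773, chromosome 2 from 11471433 to 11554077), whose enzyme makes fructose-2,6-bisphosphate, the activator of phosphofructokinase 1, was the steadiest member. It had 883 and 765 counts in the Pd1fl/fl pair against 1414 and 815 in the Pd1cKO-Tie2 pair, or 61.3 and 53.9 CPM against 59.2 and 59.7 CPM. Both Pd1cKO-Tie2 libraries lay between the Pd1fl/fl libraries. The log2 fold change of 0.05 (SE 0.22) had an adjusted p of 1.00 (edgeR). Among the isozymes of its step Pfkfb3 held 87.7% and 56.6% of the counts per kilobase in Pd1fl/fl against 77.7% and 69.3% in Pd1cKO-Tie2, again with the Pd1fl/fl libraries at both ends.

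Aldoa (ENSMUSG00000030695, chromosome 7 from 126795234 to 126809108) encodes the main aldolase, which cuts the sugar into 3-carbon pieces. It had 2364 and 1929 counts in the Pd1fl/fl pair against 3392 and 2161 in the Pd1cKO-Tie2 pair, or 164 and 136 CPM against 142 and 158 CPM. The genotypes overlapped, with a log2 fold change of 0.00 (SE 0.18, adjusted p = 1.00, edgeR) whose sign changed with the scaling. Its share of the aldolase counts per kilobase was nevertheless higher in both Pd1cKO-Tie2 libraries, at 69.0% and 78.2% against 66.9% and 57.7%. This moved with Aldoc, the aldolase gene typical of astrocytes, whose level was 91.2 and 110.7 CPM in Pd1fl/fl against 71.5 and 49.4 CPM in Pd1cKO-Tie2. The Aldoc log2 fold change was -0.74 (SE 0.26), short of the 2-fold criterion (unadjusted p = 0.0332, adjusted p = 0.753, edgeR). The mean difference of the Aldoa share was 11.3 percentage points (exact permutation p = 0.333).

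Pgk1 (ENSMUSG00000062070, chromosome X from 106187100 to 106203699), whose enzyme makes the first ATP of the pathway, had 3245 and 1881 counts in the Pd1fl/fl pair against 4936 and 2878 in the Pd1cKO-Tie2 pair. Its 225 and 133 CPM in Pd1fl/fl enclosed the 207 and 211 CPM in Pd1cKO-Tie2. The log2 fold change was 0.22 (SE 0.27, adjusted p = 1.00, edgeR), while the log2 difference between the Pd1fl/fl libraries was -0.76. Of the 50-base stretches of Pgk1, 53.9% also occur in other genes, 5 of them pseudogenes, so its counts depend on how shared reads were assigned.

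Eno1 (ENSMUSG00000063524, chromosome 4 from 150236721 to 150248879), which encodes enolase, had 4220 and 3628 counts in the Pd1fl/fl pair against 7033 and 4207 in the Pd1cKO-Tie2 pair. The 293 and 256 CPM lay below the 294 and 308 CPM of Pd1cKO-Tie2, with the nearest pair almost equal. For Eno1 the log2 fold change was 0.14 (SE 0.15, adjusted p = 1.00, edgeR). Eno1 held 97.3% and 84.7% of the counts per kilobase of Eno1, Eno2, Eno3 and Eno4 in Pd1fl/fl against 94.7% and 95.3% in Pd1cKO-Tie2. Of its 50-base stretches, 26.0% also occur in other genes, most of them in the copy Eno1b, which had 1421 and 1125 counts against 2372 and 1393 and was left out of that share. With Eno1b counted among the enolases, an alternative chosen after seeing the data, the Eno1 share was 50.2% and 48.3% for the Pd1fl/fl pair against 49.4% and 50.1% for the Pd1cKO-Tie2 pair, so the division between these genes is uncertain.

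Pkm (ENSMUSG00000032294, chromosome 9 from 59656368 to 59679375), whose pyruvate kinase makes the second ATP, had 12951 and 10096 counts in the Pd1fl/fl pair against 22241 and 13297 in the Pd1cKO-Tie2 pair. It held the highest level per kilobase of the 10 enzymes in every library, and its CPM were 898 and 711 against 931 and 974 CPM. The Pd1cKO-Tie2 pair lay wholly above the Pd1fl/fl pair, with means of 952 ± 30.5 and 805 ± 132 CPM (SD, n = 2). This was a log2 fold change of 0.24 (SE 0.15) with an adjusted p of 0.942 (edgeR). The other pyruvate kinase gene was not in the tables, and counts per gene do not separate the M1 and M2 forms that are spliced from Pkm. Shared stretches made up 25.8% of the gene.

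Ldha (ENSMUSG00000063229, chromosome 7 from 46841475 to 46855627) encodes the subunit of lactate dehydrogenase that favours lactate. It had 5397 and 4276 counts in the Pd1fl/fl pair against 9185 and 5023 in the Pd1cKO-Tie2 pair, or 374 and 301 CPM against 384 and 368 CPM, which overlapped. For Ldha the log2 fold change was 0.16 (SE 0.16, adjusted p = 1.00, edgeR). The share of Ldha in its step, unlike its level, did not overlap between the genotypes, as held for 7 of the 23 shares. Ldha made up 55.5% and 52.7% of the lactate dehydrogenase counts per kilobase in Pd1fl/fl against 66.2% and 63.7% in Pd1cKO-Tie2, that is 54.1 ± 2.00% against 64.9 ± 1.76% (SD, n = 2). The difference was 10.8 percentage points, with an exact permutation p of 0.333, the smallest possible with 2 against 2 libraries. Ldhb, whose subunit favours pyruvate, was at 124 and 118 CPM in Pd1fl/fl against 91.4 and 88.3 CPM in Pd1cKO-Tie2, a log2 fold change of -0.43 (SE 0.18, unadjusted p = 0.0593, adjusted p = 0.812, edgeR).

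For 8 of the 10 enzymes the Pd1fl/fl libraries differed from each other more than the Pd1cKO-Tie2 libraries did. The share of all tested genes for which this held was not computed. Pd1fl/fl 2 held the lowest level of 9 of the 10 enzymes, Hk2 being the exception, while it was the lowest library for 30.0% of the 8063 tested genes above 10 CPM in every library. The highest level was found in Pd1fl/fl 1 for 4 enzymes, in Pd1cKO-Tie2 2 for 4, and in each of the other libraries for 1. For 8 of the 10 the log2 difference between the Pd1fl/fl libraries exceeded the log2 fold change between the genotypes in size, and Hk2 and Gpi1 were the exceptions. A difference between single libraries varies more than one between means of 2, and the share over all tested genes was not computed. Among the enzymes the median size of the log2 difference was 0.33 within Pd1fl/fl and 0.11 within Pd1cKO-Tie2, and it was not computed over all tested genes. Summed over the 10 enzymes, the level was 2568 CPM in Pd1fl/fl 1, 2023 CPM in Pd1fl/fl 2, 2546 CPM in Pd1cKO-Tie2 1 and 2684 CPM in Pd1cKO-Tie2 2. Pd1fl/fl 1, the library with neutrophil RNA, therefore lay with the Pd1cKO-Tie2 libraries, and Pd1fl/fl 2 lay apart.

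The log2 fold change was above 0 for 9 of the 10 enzymes, with a median of 0.17, beside a median of -0.0038 over all tested genes and of 0.04 over those above 10 CPM in every library. Among all tested genes, 50.4% were below 0. Aldoa and Pfkfb3 turned negative with scaling to library size, and Aldoa also with RLE and upper quartile scaling. Without Pd1fl/fl 2 the log2 fold change was above 0 for 5 of the 10 and the median was -0.015, and without Pd1fl/fl 1 the median was 0.31, so the sign of the median rested on Pd1fl/fl 2. The endothelial markers had a median log2 fold change of 0.36, positive for 11 of 11 and with both Pd1cKO-Tie2 libraries above both Pd1fl/fl libraries for 11 of 11. When the libraries were scaled to the geometric mean of these markers, a choice made after seeing the data, the log2 fold changes of all tested genes shifted by a median of -0.37. That of the enzymes then had a median of -0.19 and was below 0 for all 10, beside a median of -0.38 over all tested genes, 78.4% of which were below 0. Under that scaling both Pd1cKO-Tie2 libraries lay below both Pd1fl/fl libraries for 8 of the 10, against 41.3% of all tested genes, and above them for 0, against 5.59%. Hk2 alone of the enzymes passed the criterion when scaled to the markers (log2 fold change -2.40, unadjusted p = 0.0469, adjusted p = 0.429, edgeR). Of all tested genes, 1010 passed it under that scaling, against 640 with TMM.

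**Figure D3:**
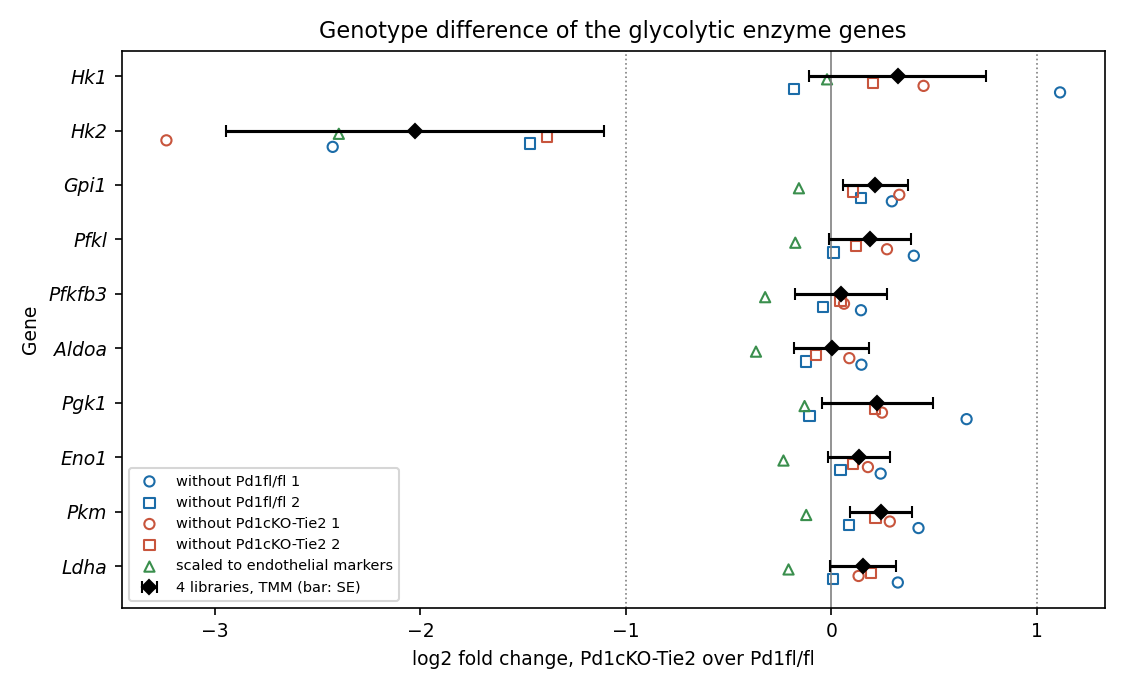
log2 fold change of each enzyme gene, Pd1cKO-Tie2 over Pd1fl/fl, from edgeR on 4 libraries (diamond, bar for the SE), with 1 library left out (open circles and squares) and with scaling to the endothelial markers (triangles). Dotted lines mark a 2-fold change. Hk2 is below 0 at every setting drawn, and the other 9 lie between 0.00 and 0.32 with 4 libraries and below 0 when scaled to the markers.

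Levels of different genes were compared as CPM per kilobase of exon, averaged over the genotypes. The order was Pkm (176), Ldha (108), Pgk1 (86.3), Eno1 (53.5), Aldoa (51.5), Gpi1 (45.3), Pfkl (23.2), Hk1 (9.05), Pfkfb3 (7.74) and Hk2 (0.948 CPM per kilobase). The ranges over the 4 libraries of Ldha and Pgk1 overlapped, as did those of Eno1 and Aldoa, of Aldoa and Gpi1, and of Hk1 and Pfkfb3. All other neighbours were separate. Among these 10, Pkm, Ldha and Pgk1 were thus the highest, and the hexokinases and the regulatory Pfkfb3 the lowest. Pkm ranked 197 and Hk2 12640 by this measure among the tested genes. Gapdh, named here after its values were seen, had between 162 and 452 counts, and 25.1% of its 50-base stretches also occur in other genes. The part of shared reads in its level was not tested.

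Of 24 listed genes of the other isozymes and steps of glycolysis, 22 were in the tables, 20 were tested and 0 passed the criterion, with a median log2 fold change of -0.12. Bpgm, whose enzyme makes the red cell regulator 2,3-bisphosphoglycerate, had the highest CPM of them, not scaled to length, at 198 and 168 CPM in Pd1fl/fl against 240 and 264 CPM in Pd1cKO-Tie2 (log2 fold change 0.46, SE 0.17, unadjusted p = 0.0354, adjusted p = 0.753, edgeR). The largest log2 fold changes were those of Pfkfb1 (1.38, SE 2.22) and Ldhc (-1.17, SE 0.91), both at low counts and with overlapping groups.

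Among the carriers that bring glucose in and take lactate out, 7 of 8 were tested. Of these, 2 passed the criterion as lower and 0 as higher, against 2.61% and 1.41% of all tested genes. Slc16a3, encoding the lactate exporter MCT4, fell from 20.3 and 19.3 CPM in Pd1fl/fl to 9.88 and 7.10 CPM in Pd1cKO-Tie2 (log2 fold change -1.22, SE 0.42, unadjusted p = 0.0288, adjusted p = 0.738, edgeR). Slc16a7, encoding the monocarboxylate carrier MCT2, fell from 7.28 and 12.2 CPM to 2.93 and 2.71 CPM (log2 fold change -1.78, SE 0.68, unadjusted p = 0.0402, adjusted p = 0.753, edgeR). Slc2a3, named after its values were seen, encodes the neuronal glucose transporter GLUT3 and narrowly missed the criterion, at 55.4 and 84.4 CPM against 29.9 and 40.1 CPM. The 4 other tested carrier genes had log2 fold changes above 0. Slc2a1 was at 3543 and 3624 CPM in Pd1fl/fl against 4621 and 4509 CPM in Pd1cKO-Tie2, a log2 fold change of 0.35 (SE 0.08, unadjusted p = 0.00658, adjusted p = 0.735, edgeR), short of 2-fold. Bsg, encoding basigin, the partner of the lactate carriers, was at 7328 and 6276 CPM against 9104 and 8915 CPM, with a log2 fold change of 0.41 (SE 0.10). Slc16a1, another lactate carrier gene named after its values were seen, was at 1071 and 999 CPM against 1093 and 1456 CPM. Its log2 fold change was 0.30 (SE 0.16). The endothelial markers had a median log2 fold change of 0.36. Which cells the carrier RNA came from was not tested.

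Of the genes that pass pyruvate into the mitochondria, 12 of 12 were tested and 0 passed the criterion, with a median log2 fold change of -0.14. Pdhb and Dld, subunits of the pyruvate dehydrogenase complex and those with the highest CPM of the list, had log2 fold changes of 0.18 (SE 0.14) and -0.11 (SE 0.20). Pdk1, a kinase that switches the complex off, was at 40.9 and 39.7 CPM in Pd1fl/fl against 25.7 and 22.6 CPM in Pd1cKO-Tie2 (log2 fold change -0.74, SE 0.28, unadjusted p = 0.0397, adjusted p = 0.753, edgeR). Pdp2, a phosphatase that switches it on, had a log2 fold change of -0.81 (SE 0.36).

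In the pentose phosphate branch, which makes NADPH from glucose-6-phosphate, 7 of 7 genes were tested and 0 passed the criterion, with a median log2 fold change of 0.02. Its oxidative enzymes G6pdx and Pgd were lower in both Pd1cKO-Tie2 libraries than in both Pd1fl/fl libraries, with log2 fold changes of -0.51 (SE 0.22) and -0.60 (SE 0.25). Of all tested genes, 18.1% lay that way. The non-oxidative Taldo1 and Tkt overlapped between the genotypes, at 0.02 (SE 0.15) and 0.11 (SE 0.19). Of the 7 gluconeogenesis genes 4 were tested and 0 passed, with Pcx, the highest in CPM, at 0.26 (SE 0.19), G6pc3 at 0.36 (SE 0.35) and Fbp1 at -1.06 (SE 1.23).

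Of 10 factors known to act on glycolytic genes in endothelium, 10 were tested and 0 passed the criterion, with a median log2 fold change of 0.09. The hypoxia factor Hif1a was at 487 and 351 CPM in Pd1fl/fl against 392 and 363 CPM in Pd1cKO-Tie2, and its endothelial relative Epas1 at 712 and 700 CPM against 722 and 820 CPM. Their log2 fold changes were -0.15 (SE 0.19) and 0.13 (SE 0.13). The oxygen-sensing hydroxylase gene Egln1 was at 46.4 and 30.4 CPM against 49.5 and 69.9 CPM, a log2 fold change of 0.64 (SE 0.33, adjusted p = 0.906, edgeR), and Egln3 had at most 16 counts in a library.

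Markers of some other cells also differed between the genotypes. Astrocyte and radial glia markers, 6 of 6 tested, summed to 745 and 707 CPM in Pd1fl/fl against 478 and 349 CPM in Pd1cKO-Tie2, and 1 of them, Fabp7, a fatty acid binding protein of radial glia, passed the criterion (log2 fold change -1.01, SE 0.19, adjusted p = 0.735, edgeR). Slc1a3, a glutamate transporter of astrocytes, had a log2 fold change of -0.79 (SE 0.15), and none of these markers was at 0 in all libraries. Slc1a2 had a log2 fold change of -1.14 (SE 0.61) with overlapping groups. Of the 6, 1 had a log2 fold change above 0. Both Pd1cKO-Tie2 libraries lay below both Pd1fl/fl libraries for 3 of the 6, against 18.1% of all tested genes. Microglia and macrophage markers, 6 of 6 tested with 0 past the criterion, summed to 1352 and 1826 CPM against 580 and 1236 CPM. For 5 of these 6, both Pd1cKO-Tie2 libraries lay below both Pd1fl/fl libraries, against 18.1% of all tested genes. The part of these cells in the enzyme results was not tested.

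The remaining lists separated the genotypes less. Neuronal markers summed to between 621 and 935 CPM with 0 of 7 past the criterion, oligodendrocyte lineage markers to between 68.5 and 149 CPM with 0 of 4, erythroid markers to between 546 and 1058 CPM with 0 of 5 and pericyte markers with 0 of 5. The neutrophil genes Ltf and Camp were at 0 in every library but Pd1fl/fl 1, and the 2 tested genes of that list, S100a8 and Ngp, passed the criterion as lower with that library among the Pd1fl/fl libraries.

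**Figure D4:**
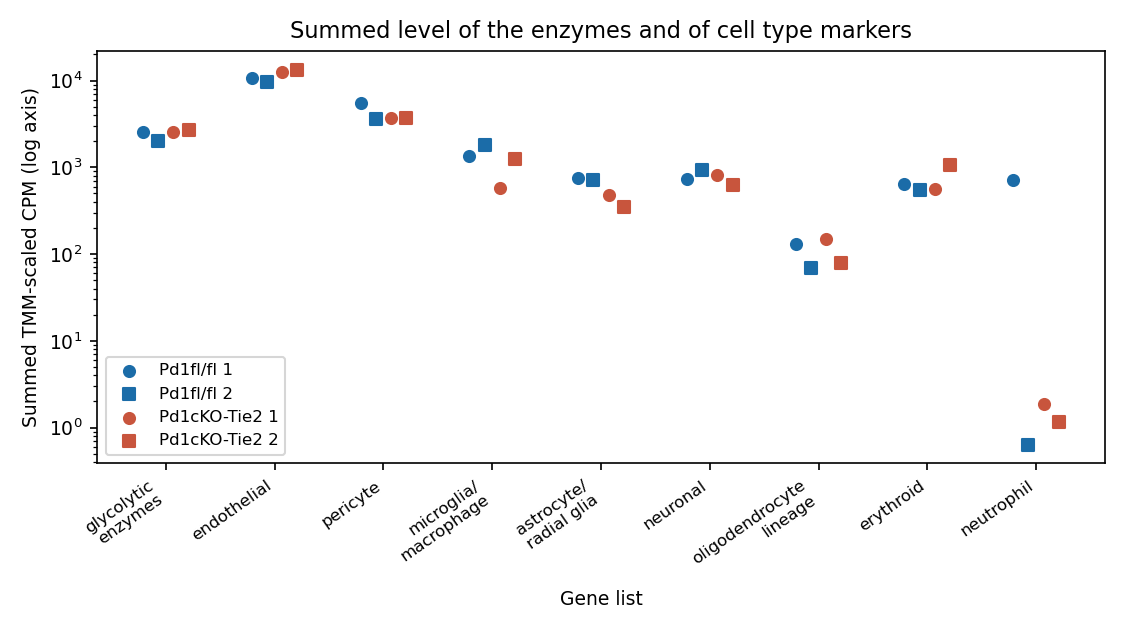
Summed TMM-scaled CPM, on a log axis, of the 10 enzymes and of 8 lists of cell type markers in each library (blue for Pd1fl/fl, red for Pd1cKO-Tie2, circles for library 1 and squares for library 2). The enzymes sit between 2023 and 2684 CPM, the endothelial markers are higher and the astrocyte markers lower in both Pd1cKO-Tie2 libraries, and neutrophil genes stand at 722.5 CPM in Pd1fl/fl 1.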

How the data were processed

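Endothelial RNA of both genotypes was sequenced on an Illumina instrument. The authors deposited 4 pairwise tables of raw read counts per gene, with their own scaled values and p-values, which were not used. The submitters' processing notes list Bowtie2 2.2.3, TopHat2 2.0.12, HTSeq 0.6.0 and build mm9. The gene positions in the tables are those of GRCm38, however, and 90.04% equal GENCODE M21. The use of strand is not given in the sources used here. Counts held by 2 tables never differed. Broken lines were skipped, 5 in each of 2 tables, and unlisted genes were set to 0. The column numbered 2 of Pd1cKO-Tie2 matches no label number (1 and 3), so that library is known by its genotype alone.

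Counts were tested with edgeR 4.0.16 (R 4.3.3; filterByExpr, TMM, quasi-likelihood F test, Benjamini-Hochberg over 15909 genes), with a common biological coefficient of variation of 0.610. Each standard error was the log2 fold change divided by the square root of F. The script was tested on simulated data. Shares used counts per kilobase of the M21 exon union and SciPy 1.17.1. Intervals cover counting error only. The alternatives were DESeq2 1.42.0 on all or on the filtered genes, limma-voom 3.58.1, edgeR's likelihood ratio test, other filters and scalings, other lengths for the shares, and leaving out each library. The members and lists were chosen with earlier results of these data known. Of each list other than the cell type markers, genes past the study criterion, the 2 most abundant and the 2 with the largest log2 fold change were named. 1 gene of the list of other isozymes is not reported here and was left out of the shares and counts.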

Additional observations from a re-analysis of the deposited data

How the results depend on the processing

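The number of enzymes past the study criterion was 0 with all 4 libraries and TMM scaling. It was 1 (Hk2, unadjusted p = 0.0277, edgeR) with at least 10 counts required in every library. Fewer genes were tested there, and 480 of them passed. It was also 1 (Hk2) with scaling to the endothelial markers, where 1010 of all genes passed, against 640 with TMM. The share of all tested genes past the criterion at these settings was not computed. With 1 library left out, the log2 fold change was 1.11 for Hk1 without Pd1fl/fl 1 and -3.24 for Hk2 without Pd1cKO-Tie2 1. Over the 14 alternatives the log2 fold change of Hk2 ran from -3.24 to -1.38 and its adjusted p from 0.429 to 0.928, and its sign did not change.

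Scaling to the endothelial markers, added after seeing the data, gave 1010 genes past the criterion against 640, a median log2 fold change of the enzymes of -0.19 against 0.17, and 0 against 3 enzymes with both Pd1cKO-Tie2 libraries above both Pd1fl/fl libraries. Leaving out each library gave 3 to 9 such enzymes, 9 of them without Pd1fl/fl 1, where 32.9% of all tested genes lay that way with 2 libraries against 1. The median ran from -0.015 without Pd1fl/fl 2 to 0.31 without Pd1fl/fl 1. Under the marker scaling the log2 fold change was -0.021 for Hk1, -0.16 for Gpi1, -0.18 for Pfkl, -0.32 for Pfkfb3, -0.37 for Aldoa, -0.13 for Pgk1, -0.23 for Eno1, -0.12 for Pkm and -0.21 for Ldha, all positive with TMM. Aldoa, at 0.0015 with TMM, was at -0.00070 with DESeq2 on the filtered genes, -0.0075 with limma-voom, -0.0027 with the stricter filter, -0.00057 with RLE, -0.0040 with upper quartile and -0.060 with library size scaling. Pfkfb3 was at -0.015 with library size scaling.

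With 1 library left out, the log2 fold change ran from -0.18 to 1.11 for Hk1, from -0.040 to 0.14 for Pfkfb3, from -0.12 to 0.15 for Aldoa and from -0.11 to 0.66 for Pgk1, with the negative values coming without Pd1fl/fl 2 (for Aldoa also without Pd1cKO-Tie2 2). The differences in share ran from -2.04 to 7.11 percentage points for Pfkl (-2.04 without Pd1fl/fl 2), from -14.2 to 16.9 for Pfkfb3 (-14.2 without Pd1fl/fl 2) and from -2.28 to 10.3 for Eno1 (-2.28 without Pd1fl/fl 2). The causes were not tested. The shares of Hk2, Aldoa and Ldha kept their direction with coding length, with no length and without each library. The size for Hk2 changed, from -21.1 percentage points without Pd1fl/fl 1 to -4.58 without Pd1fl/fl 2. With 1 library left out, the difference ran from 6.72 to 16.0 for Aldoa and from 9.41 to 12.2 for Ldha.

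No paired analysis was possible because the labels of the genotypes share only 1 replicate number. With 2 libraries per genotype no permutation test can give a p below 0.333, and the counts of Hk2 (13 in Pd1cKO-Tie2 2) limit its precision.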
